A study of Mus musculus with 16 samples.

Results

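The genes described here build the machinery of mitosis: the kinases and cyclins that start it, the spindle, the kinetochore, the checkpoint, the cytokinesis apparatus and condensin. They are 51 genes listed by symbol as mitosis genes, out of 29806 gene rows in each deposited table. All 51 had a row in every library, and all 51 passed the filter on low counts, which left 14179 genes tested. The rule names them by symbol and uses no measured value, but the list was chosen with earlier results of these data known.

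RNA was sequenced from 2 cell populations of mouse bone marrow. HSC are hematopoietic stem cells. MPP3 are multipotent progenitors biased toward the myeloid lineage, here the fraction negative for Fcgr, the Fc receptors carried by later granulocyte and monocyte progenitors. The mutant groups, mutant HSC and mutant MPP3, came from mice with the genotype Jak2V617F, a signaling mutation that keeps the JAK2 kinase of cytokine receptors active, and the control groups, control HSC and control MPP3, came from wild-type mice. Each of the 4 groups held 4 libraries, each from 7000 to 10000 cells, and the replicate number is also the batch in the labels. The labels used here do not state the promoter of the mutant allele, the number of mutant copies, the age of the mice or whether a library came from 1 animal. Each p-value therefore measures the spread between these libraries, which may in part be technical. The genotype could not be checked, because a count per gene does not carry the base change in Jak2.

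In a dividing cell, CDK1 bound to cyclin B starts mitosis, condensin folds the copied chromosomes, and kinetochores built on centromeres tie them to spindle microtubules. The spindle checkpoint holds back the anaphase-promoting complex until every kinetochore is attached, after which securin is destroyed, separase cuts cohesin and the cell is pinched apart. Most of the transcripts of these proteins accumulate late in the cell cycle, and adult HSC are known to be mostly quiescent, while MPP3 cycle more often.

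Genes that peak in late cell cycle are known for a promoter element called the cell cycle homology region, with the core TTTGAA, and for CCAAT boxes. In resting cells the DREAM complex acts through the first of these, and in dividing cells the MYB-MuvB and FOXM1 factors do; NF-Y binds the CCAAT boxes. The promoter stretches below are the 120 bases before the start site in RefSeq (build GRCm38.p6), 5′ to 3′ on the strand of the gene, with TTTGAA and CCAAT, or their reverse complements TTCAAA and ATTGG, in capitals. They were chosen to show both elements (the topoisomerase gene Top2a, the spindle motor gene Kif11, and the cytokinesis genes Arhgap19 and Ect2), CCAAT boxes with no core in these bases (the cyclin gene Ccnb2) or neither (the checkpoint gene Mad2l1). No exon of the GENCODE annotation reaches into any of them.
Top2a (chr11:99024190-99024309, minus strand): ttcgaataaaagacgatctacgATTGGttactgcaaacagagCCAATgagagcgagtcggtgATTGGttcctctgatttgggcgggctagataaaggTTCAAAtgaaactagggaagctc
Kif11 (chr19:37376262-37376381, plus strand): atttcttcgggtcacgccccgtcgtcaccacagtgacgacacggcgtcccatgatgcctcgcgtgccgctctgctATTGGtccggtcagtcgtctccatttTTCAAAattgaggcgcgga
Arhgap19 (chr19:41802085-41802204, minus strand): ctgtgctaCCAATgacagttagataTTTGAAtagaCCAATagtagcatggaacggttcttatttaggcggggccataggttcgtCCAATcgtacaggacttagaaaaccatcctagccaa
Ect2 (chr3:27153879-27153998, minus strand): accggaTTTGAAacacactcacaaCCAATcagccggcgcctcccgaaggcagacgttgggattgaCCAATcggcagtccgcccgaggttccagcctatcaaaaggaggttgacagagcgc
Ccnb2 (chr9:70421555-70421674, minus strand): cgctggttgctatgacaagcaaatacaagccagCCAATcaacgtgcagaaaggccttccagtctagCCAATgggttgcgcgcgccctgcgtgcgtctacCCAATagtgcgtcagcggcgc
Mad2l1 (chr6:66535101-66535220, plus strand): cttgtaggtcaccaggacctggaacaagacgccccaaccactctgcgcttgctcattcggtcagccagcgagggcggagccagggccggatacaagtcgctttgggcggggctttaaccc

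Of the 51 genes, 42 had a promoter entry in RefSeq, and Aurkb, Ccna2, Cdc25c, Incenp, Kif20a, Ska1, Smc4, Spc24 and Tpx2 had none. In windows from 250 bases before to 50 bases after the start, searched on both strands, TTTGAA occurred in 32 of these 42 genes (76.2%). The share was 14.5% of the 10395 tested genes with an entry and 20.2% of all 27025 genes in the promoter table. CCAAT occurred in 33 of the 42 (78.6%), against 42.9% of tested genes and 41.1% of all genes in the table (a match of one motif can share a base with a match of the other). Both occurred in 28 of the 42 (66.7%), against 7.12% of tested genes. TTTGAA within 50 bases of the start was found in 29 of the 42 (69.0%), against 3.77% of tested genes. By position, TTTGAA was most frequent from the start to 24 bases after it (31.0% of the 42 genes) and CCAAT from 75 to 51 bases before it (38.1%). In Ccnb2 the core lay outside the printed bases, at positions -167 and 4 from the start. Ect2 has 2 promoter entries, of which 1 is shown. Over both entries the Ect2 core also lay after the start, at positions 15 and 39, outside the printed bases. Pttg1, which encodes securin, held neither motif in its window, and the same was true of Birc5, Mad2l1, Nuf2 and Ncaph. Ccnb1, Cdc25b, Bub1, Cenpe and Ska2 held CCAAT alone. For Mad2l1 the GENCODE gene starts at chr6:66535390, beyond the window searched, so the bases next to that start were not read. A match describes letters in a window and is neither a bound site nor a cause.

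**Figure D1:**
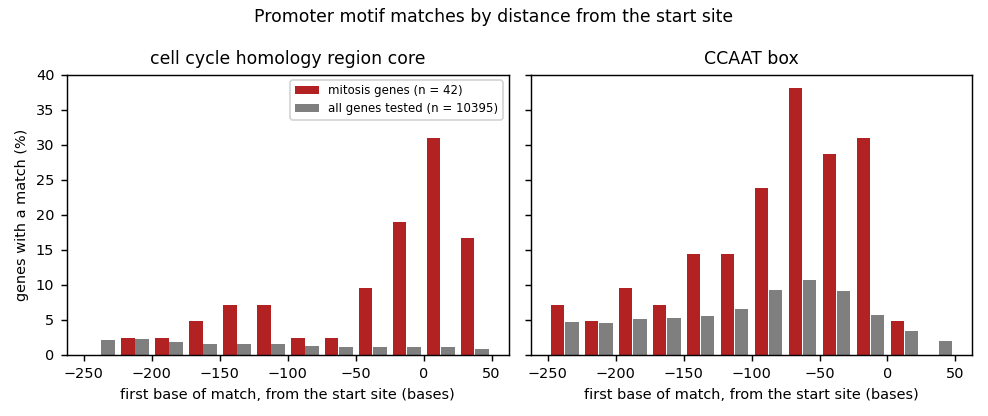
Share of genes (%) with a match to the cell cycle homology region core (left) or the CCAAT box (right) in each bin of 25 bases from 250 bases before to 50 after the RefSeq start site, for the 42 mitosis genes with a promoter entry (red) and the 10395 tested genes with one (gray). The red bars peak just after the start for the core and from 75 to 51 bases before it for CCAAT, where 31.0% and 38.1% of the mitosis genes held a match.

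The 16 libraries held 33.4 to 41.5 (1e6 estimated counts) each. Levels below are CPM, counts per 1e6 of the library scaled by the TMM method, and values in lists run from replicate 1 to 4. Log2 fold changes carry their standard error (SE), and adjusted p is that of the quasi-likelihood test in edgeR, adjusted by Benjamini and Hochberg's method over all 14179 genes, with under 0.05 called a change. The cell labels were checked against marker genes: in control MPP3 all 8 HSC markers were lower and all 8 MPP3 and early myeloid markers higher than in control HSC, and in mutant MPP3 against mutant HSC 5 of 8 were lower and 8 of 8 higher. In bulk RNA, fewer cells of a type and less RNA per cell cannot be told apart, and this holds for cells in mitosis. No label says whether reads were counted by strand, so reads from genes that overlap on opposite strands cannot be told apart. Of the members, 16 share exon bases with another gene, the most being Kif20a, with 29.3% of its exon bases shared with Cdc23 on the opposite strand.

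Mitosis genes were at their lowest in control HSC. Summed over the 51 genes, levels were 2951, 2981, 3356 and 3141 CPM in control HSC and 6154, 4966, 5302 and 5932 CPM in mutant HSC. The same sums were 4297, 4795, 5073 and 4248 CPM in control MPP3 and 6079, 5620, 5059 and 5837 CPM in mutant MPP3. All 4 control HSC libraries lay below the other 12, and the lowest mutant HSC library lay below the highest control MPP3 library. The means ± SD over 4 libraries were 3107 ± 186 (control HSC), 4603 ± 399 (control MPP3), 5589 ± 550.0 (mutant HSC) and 5649 ± 435 CPM (mutant MPP3), and the last pair differed by less than their SD. Gene by gene, control HSC had the lowest mean for 50 of 51 members, the exception being Pttg1, whose mean was lowest in control MPP3. The highest mean was in mutant HSC for 26 members and in mutant MPP3 for 25, and mutant HSC had a higher mean than control MPP3 for 48. For 24 members, among them Cdk1, Ccnb1, Cenpa, Top2a and Ncapd2, every control HSC library lay below every other library.

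**Figure D2:**
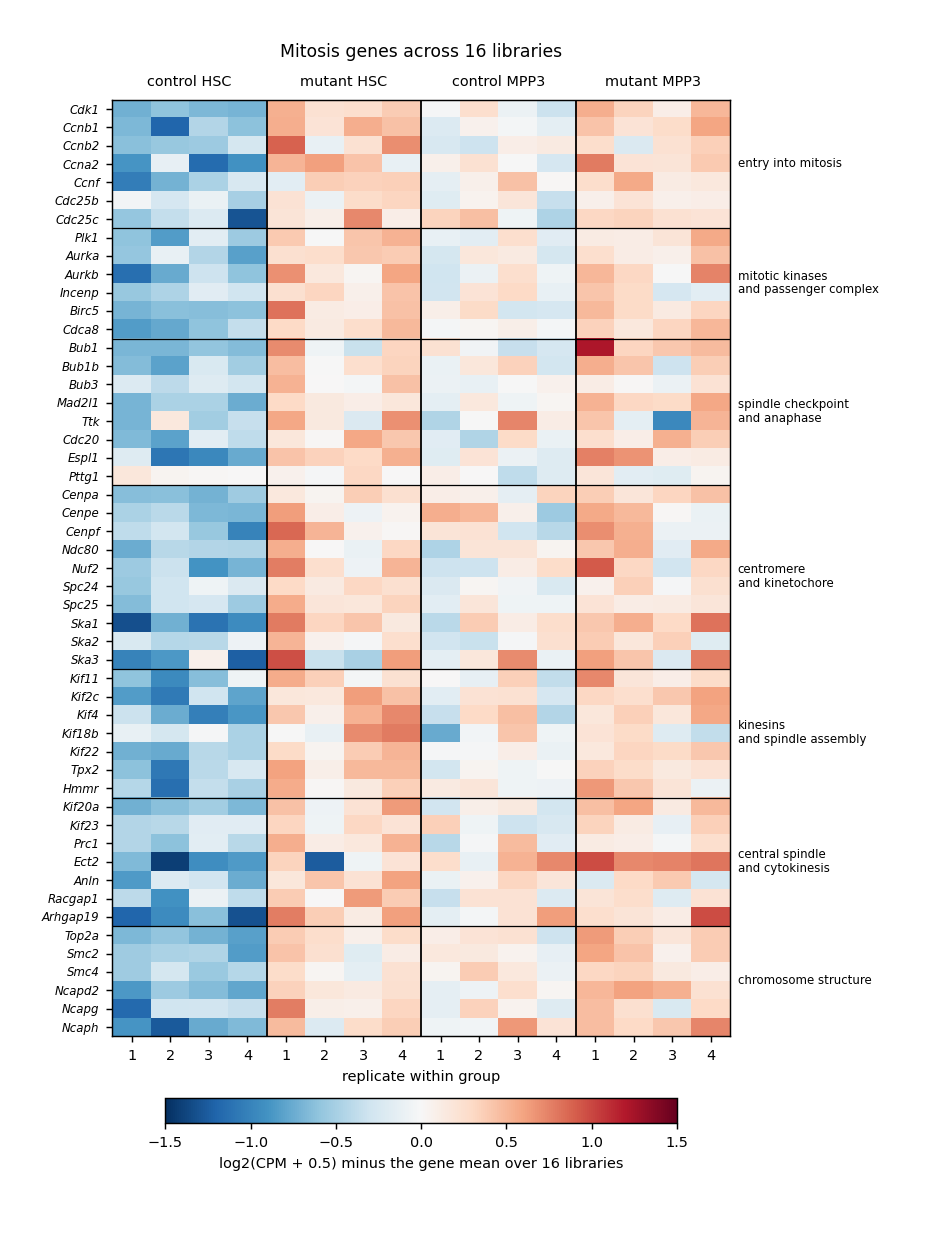
Heat map of the 51 mitosis genes (rows, by role) in 16 libraries (columns, replicates 1 to 4 of each group). Color gives log2(CPM + 0.5) minus the mean of the gene over the 16 libraries, blue for lower and red for higher; the 4 control HSC columns are blue for nearly every gene and the Pttg1 row is nearly white throughout.

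Compared per length, as the deposited TPM allows, the most abundant members in control HSC were Spc24 (123.0 ± 20.0 TPM, SD, n = 4), a kinetochore subunit, and Bub3 (120 ± 8.22 TPM), a checkpoint protein. The least abundant was Ska1 (2.94 ± 0.577 TPM). In mutant HSC the order began with Cdk1 (193 ± 25.6 TPM) and Top2a (183.0 ± 19.8 TPM), which do not differ beyond their spread, and in both MPP3 groups it began with Top2a (158 ± 21.0 TPM in control and 192 ± 15.6 TPM in mutant MPP3) followed by Cdca8 (147 ± 7.83 and 176 ± 17.1 TPM). Ska1 was last in 3 groups, and in mutant MPP3 Kif18b was (7.02 ± 1.99 TPM, with Ska1 at 8.39 ± 1.32 TPM).

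**Figure D3:**
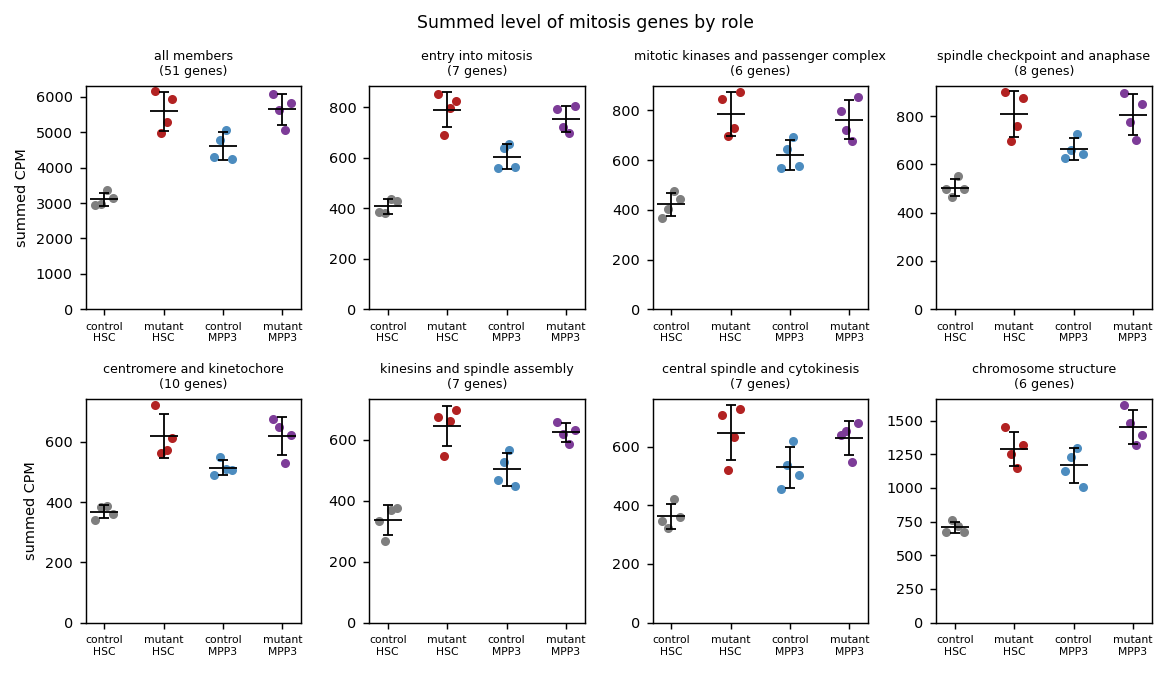
Summed CPM of all 51 mitosis genes and of each role group (y axis from 0) in the 4 groups of libraries; points are libraries, lines and bars the mean ± SD (n = 4). In every panel the control HSC points are lowest, and those of mutant HSC and mutant MPP3 share a range; for all members the means are 3107, 5589, 4603 and 5649 CPM.

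Mutant HSC were set against control HSC to read the effect of Jak2V617F on the mitosis genes of stem cells. Transcripts for mitosis rose across every role: 43 of 51 members were called higher, where 4.56% of all genes tested were, and 0 were called lower, where 2.74% were. The median log2 fold change of the members was 0.86 (range 0.04 to 1.52), and that of all genes was -0.06. Of the 43, 12 rose more than 2-fold, led by Ska1 and Arhgap19. The 2 groups did not overlap for 45 members, mutant above control, against 7.26% of all genes. Within batches, the median difference of the members was 1.04, 0.72, 0.73 and 0.97 on the log2 scale in batches 1 to 4, and 48 members were higher in the mutant library of all 4 batches, against 14.0% of all genes. The exceptions were Ttk, Pttg1 and Ska3.

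Of 7 genes for entry into mitosis, 6 rose. Cdk1, the kinase that drives entry, stood at 63.1, 68.7, 65.3 and 64.0 CPM in control HSC and at 152, 122, 124 and 136 CPM in mutant HSC, which is 1.03 ± 0.12 on the log2 scale (edgeR adjusted p = 0.000191). Ccnb1, its cyclin B1, stood at 109, 76.1, 128 and 114 CPM in control and 254, 201, 255 and 236 CPM in mutant HSC, a change of 1.15 ± 0.14 (edgeR adjusted p = 0.000191). Every mutant library was above every control library for both genes. The cyclin genes Ccna2 (1.12 ± 0.23), Ccnb2 (0.98 ± 0.19) and Ccnf (0.83 ± 0.17) also rose, as did Cdc25c (0.87 ± 0.24), one of the phosphatases that switch CDK1 on. The related phosphatase gene Cdc25b did not pass, with 54.9, 47.6, 52.7 and 40.1 CPM in control and 66.0, 53.4, 68.4 and 71.0 CPM in mutant HSC (0.41 ± 0.13, edgeR adjusted p = 0.0763). Its groups overlapped, since mutant replicate 2 lay below control replicate 1.

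All 6 genes of the mitotic kinases and the chromosomal passenger complex rose. The passenger complex corrects faulty attachments at the centromere and later acts at the midzone of the spindle. Cdca8, which encodes its subunit borealin, stood at 101, 106, 119 and 141 CPM in control and 224, 198, 218 and 254 CPM in mutant HSC, a change of 0.94 ± 0.11 (edgeR adjusted p = 0.000162). Birc5, which encodes survivin of the same complex, stood at 39.9, 42.1, 41.6 and 42.3 and 114, 71.0, 69.7 and 88.3 CPM (1.05 ± 0.16, edgeR adjusted p = 0.000898). Neither gene showed overlap between groups, and mutant replicate 1 was the highest for Birc5. The remaining 4, Aurkb (1.07), the kinase of that complex, Plk1 (0.86) and Aurka (0.80), kinases of the spindle poles, and Incenp (0.64), the scaffold of the complex, had log2 fold changes of 0.64 to 1.07.

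Of 8 genes of the spindle checkpoint and anaphase, 6 rose. Mad2l1, the checkpoint protein that captures CDC20, stood at 54.5, 63.6, 63.3 and 52.3 CPM in control and 109, 97.6, 94.7 and 99.7 CPM in mutant HSC, a change of 0.78 ± 0.10 (edgeR adjusted p = 0.000438). Its promoter stretch above held neither motif, but the GENCODE start of the gene lay outside the window searched. Espl1, which encodes separase, the protease that cuts cohesin, stood at 37.8, 20.2, 21.8 and 25.4 and 58.3, 55.0, 53.1 and 62.7 CPM (1.12 ± 0.20, edgeR adjusted p = 0.00255). In both, the lowest mutant library was above the highest control library. Pttg1, which encodes securin, the inhibitor of separase, had a flat profile, with 36.3, 32.9, 32.3 and 32.1 CPM in control and 33.6, 31.7, 39.7 and 32.1 CPM in mutant HSC (0.04 ± 0.14, edgeR adjusted p = 0.925). Its groups overlapped throughout, and without mutant replicate 3 its log2 fold change was -0.01. The inhibitor and the protease it restrains thus had log2 fold changes of 0.04 and 1.12. Ttk, the kinase that starts checkpoint signaling, stood at 14.5, 26.6, 16.5 and 18.7 and 35.9, 26.5, 20.6 and 38.9 CPM (0.68 ± 0.32, edgeR adjusted p = 0.229), and mutant replicates 2 and 3 lay within the control range. The checkpoint genes Bub1 (0.88), Bub1b (0.81) and Bub3 (0.53) rose with Cdc20 (0.79), the activator of the anaphase-promoting complex.

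Of 10 centromere and kinetochore genes, 8 rose. Cenpa, the histone variant that marks centromeres, stood at 62.9, 63.2, 60.2 and 67.7 CPM in control and 109.9, 101, 127 and 116 CPM in mutant HSC, a change of 0.84 ± 0.11 (edgeR adjusted p = 0.00026). Ska1, a subunit of the SKA complex that holds kinetochores on microtubule ends, stood at 4.22, 6.60, 4.94 and 5.60 and 19.6, 14.2, 15.1 and 12.5 CPM, the largest change among the 51 (1.52 ± 0.23, edgeR adjusted p = 0.000809). For both genes the control libraries lay wholly below the mutant libraries. The other SKA subunits did not pass: Ska2 stood at 22.7, 19.7, 19.9 and 25.4 CPM in control and 38.1, 28.1, 26.4 and 32.0 CPM in mutant HSC (0.51 ± 0.18, edgeR adjusted p = 0.0946). Ska3 stood at 9.07, 10.1, 19.7 and 7.74 and 37.0, 14.7, 13.2 and 29.2 CPM (1.01 ± 0.36, edgeR adjusted p = 0.1). For Ska2 the groups did not overlap, while for Ska3 control replicate 3 lay above mutant replicates 2 and 3. All 4 subunits of the NDC80 complex, the microtubule-binding part of the kinetochore, rose: Ndc80 (0.73), Nuf2 (1.01), Spc24 (0.53) and Spc25 (0.76). So did the kinetochore motor gene Cenpe (0.77) and the large kinetochore protein gene Cenpf (0.94).

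Of 7 genes for kinesins and spindle assembly, 6 rose. Kif22, a motor that sits on chromosome arms, stood at 82.3, 79.8, 101 and 97.7 CPM in control and 165, 139, 177 and 192 CPM in mutant HSC, a change of 0.90 ± 0.11 (edgeR adjusted p = 0.000191). Tpx2, which seeds spindle microtubules and activates Aurora A, stood at 60.9, 44.2, 70.7 and 79.6 and 143, 99.8, 132 and 131 CPM (0.99 ± 0.15, edgeR adjusted p = 0.00104). The groups were apart for both, with mutant replicate 2 the lowest of the mutant libraries. Kif4 (1.18), a motor that shapes chromosomes, Kif2c (1.09), which takes microtubules apart at centromeres, Kif11 (0.83), which pushes the poles apart, and Hmmr (0.86), a microtubule-binding protein of the spindle, rose too. Kif18b, a motor that shortens astral microtubules, did not pass, with 17.7, 15.8, 18.9 and 13.6 CPM in control and 19.1, 17.7, 31.5 and 33.1 CPM in mutant HSC (0.62 ± 0.26, edgeR adjusted p = 0.168). Mutant replicates 3 and 4 were high for Kif18b, and replicates 1 and 2 were close to the controls.

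Of 7 genes for the central spindle and cytokinesis, 5 rose. Kif20a, the motor that carries the passenger complex to the midzone, stood at 75.5, 80.4, 86.7 and 78.2 CPM in control and 169, 118, 145 and 194 CPM in mutant HSC, a change of 0.97 ± 0.15 (edgeR adjusted p = 0.000894). Cdc23, the gene on the opposite strand with which Kif20a shares exon bases, changed by 0.11 ± 0.15 on the log2 scale, which did not pass (edgeR adjusted p = 0.751). Arhgap19, which switches off the RhoA signal of the cleavage furrow, stood at 14.1, 16.9, 21.0 and 12.9 and 56.1, 42.3, 35.7 and 50.5 CPM (1.51 ± 0.23, edgeR adjusted p = 0.00104). The lowest mutant library exceeded the highest control library for Kif20a and for Arhgap19. Ect2, which switches RhoA on, stood at 21.2, 12.5, 17.6 and 18.6 CPM in control and 43.1, 14.0, 32.6 and 39.2 CPM in mutant HSC (0.88 ± 0.27, edgeR adjusted p = 0.0564). Mutant replicate 2 lay inside the control range, and without it Ect2 passed (edgeR adjusted p = 0.00337); it also passed with the replicate number as a block (log2 fold change 0.83, edgeR adjusted p = 0.0190) and with effective-length offsets (1.03, edgeR adjusted p = 0.00667). Kif23, the motor of centralspindlin, stood at 38.0, 38.8, 45.9 and 45.9 and 64.6, 49.6, 64.1 and 59.9 CPM (0.50 ± 0.16, edgeR adjusted p = 0.0624), with no overlap between groups. Its partner gene Racgap1 rose (0.79), as did the microtubule bundler gene Prc1 (0.74) and the furrow scaffold gene Anln (0.87).

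All 6 genes of chromosome structure rose. Ncapd2, a subunit of condensin I, stood at 141, 176, 164 and 149.8 CPM in control and 326, 289, 283 and 305 CPM in mutant HSC, a change of 0.93 ± 0.11 (edgeR adjusted p = 0.000162, the smallest of the members together with that of Cdca8). Top2a, the topoisomerase that untangles copied chromosomes, stood at 292, 307, 284 and 263 and 608, 557, 490.0 and 562 CPM (0.95 ± 0.12, edgeR adjusted p = 0.00026). Each group was narrow beside the gap between the groups. The other condensin I subunit genes, Ncaph (1.13) and Ncapg (0.83), rose, and so did Smc2 (0.73) and Smc4 (0.55), the core subunits shared with condensin II.

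**Figure D4:**
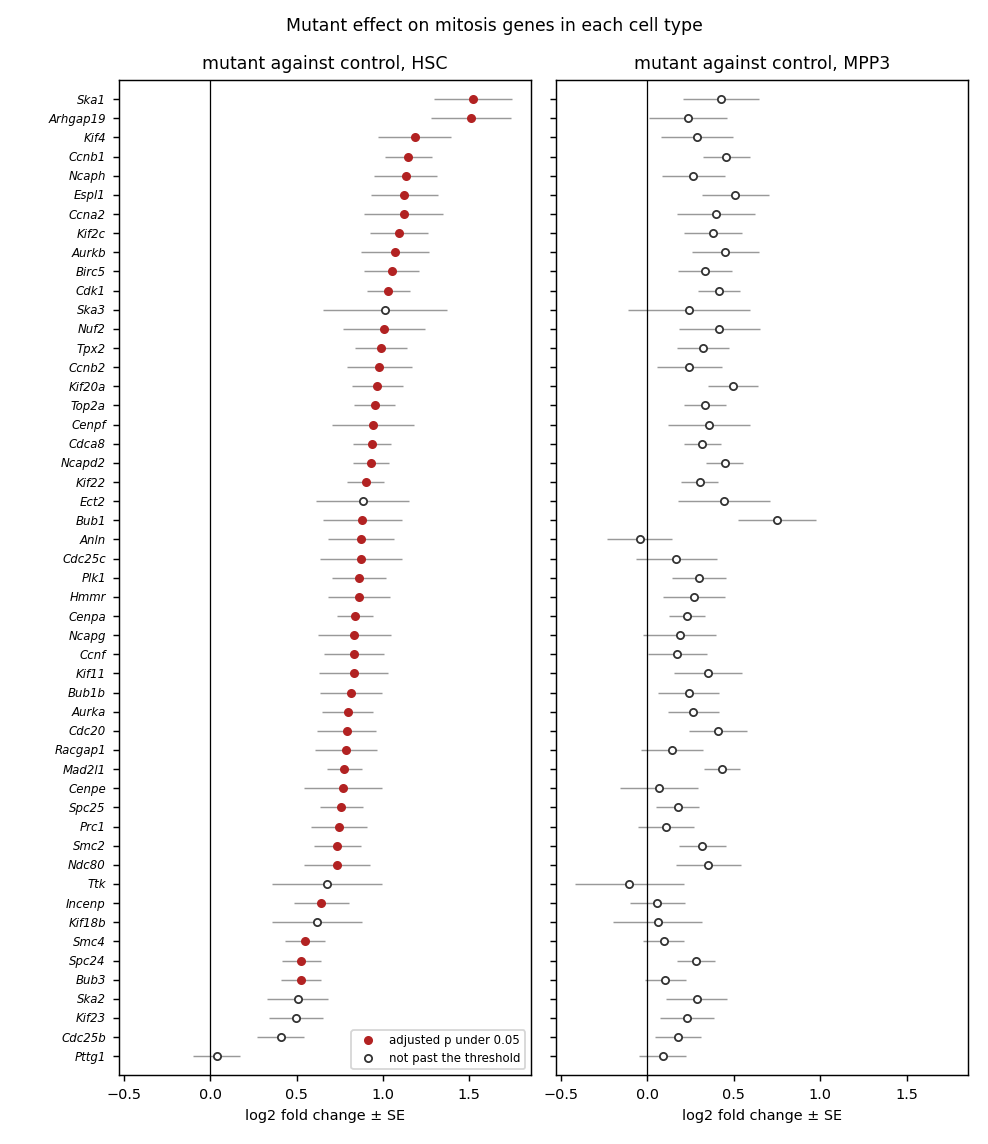
Log2 fold change ± SE of each mitosis gene, mutant against control, in HSC (left) and MPP3 (right), ordered by the change in HSC; filled points have an edgeR adjusted p under 0.05. All 51 points lie above 0 in HSC, from Pttg1 at 0.04 to Ska1 at 1.52, and 49 of 51 do in MPP3, with none filled.

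Of the 43 calls, 20 held in all 25 alternative settings, and 34 held in each of the 16 fits that left out 1 library. The other 9 lost their call in at least 1 of those fits, with edgeR adjusted p at most 0.169: Cdc25c, Incenp, Bub1, Cenpe, Cenpf, Ndc80, Nuf2, Kif11 and Ncapg. The lowest count of calls after leaving out 1 library was 35 of 51, without mutant HSC replicate 1, which was the highest mutant HSC library for 29 members. Without mutant HSC replicates 1 and 4 together, 20 members were called, where 180 of all genes were. Among the members that did not pass, Cdc25b passed without control HSC replicate 1 (0.0497) or mutant HSC replicate 2 (0.0367), Ska3 without control HSC replicate 3 (0.0336) or mutant HSC replicate 3 (0.0381) and Ska2 without mutant HSC replicate 3 (0.0471), by the same edgeR test. Kif23 passed in 5 such fits, without mutant HSC replicate 2, control MPP3 replicate 1 or mutant MPP3 replicate 1, 3 or 4 (0.0251 to 0.0489), and Ect2 also passed without control MPP3 replicate 2 (0.0443). Ttk, Kif18b and Pttg1 passed in none of the settings.

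Other measures moved with genotype in HSC. Of the 8 HSC markers, 4 fell in mutant HSC and 0 rose, and their summed level ran from 674 to 832 CPM in control and from 429 to 495 CPM in mutant HSC. The 8 MPP3 and early myeloid markers summed to 365 to 443 CPM in control and 205 to 363 CPM in mutant HSC, with 1 risen and 1 fallen, against 2756 to 5870.0 CPM in the MPP3 groups; Ctsg lay under 1 CPM in both HSC groups and Cebpa in mutant HSC. The 6 megakaryocyte markers summed to 2328 to 2595 CPM in control and 1731 to 2193 CPM in mutant HSC, with 2 risen and 1 fallen. The 8 erythroid markers summed to 160 to 341 CPM in control and 201 to 308 CPM in mutant HSC, with 0 called. The 5 markers of T and NK cells summed to 48.6 to 84.1 CPM in control and 132 to 167 CPM in mutant HSC, with 1 risen and with Cd3e, Gzma and Klrd1 at 0 in both groups. B cell markers summed to 72.2 to 93.9 CPM in control and 53.1 to 66.6 CPM in mutant HSC, with 1 fallen and with Pax5 and Vpreb1 at 0 in both. Markers of neutrophils (21.7 to 69.6 and 2.04 to 47.1 CPM), of mast cells and basophils (2.94 to 8.93 and 3.14 to 6.82 CPM, Mcpt8 at 0 in both) and of stroma and endothelium (61.5 to 85.7 and 53.0 to 83.2 CPM) had 0 called. Mitochondrial transcripts made up 1.45 to 2.03% of counts in control and 0.92 to 1.37% in mutant HSC. The part of these differences in the rise of the mitosis genes was not tested.

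Genes that work beside the members were read from separate lists. The counts below stand beside 4.56% of all genes tested called higher in mutant HSC and 2.74% called lower. In MPP3, mutant against control, 0 genes of these lists were called, where 0.0141% of all genes were called higher and 0.0494% lower. Of 29 further kinetochore genes, 12 rose in mutant HSC and 0 fell, led by Pmf1 (0.90 ± 0.09) and Cenpm (0.98 ± 0.12), with a median of 0.72. Of 21 further spindle and centrosome genes, 15 rose and 0 fell, led by Kif15 (1.17 ± 0.14), a motor that supports spindle poles, and Tacc3 (1.08 ± 0.16), a clathrin-binding spindle protein, with a median of 0.82. Of 9 regulators of CDK1, 4 rose, among them its small partners Cks1b (0.80 ± 0.11) and Cks2 (0.74 ± 0.14), while Wee1, the kinase that restrains CDK1, had -0.33 ± 0.26 (edgeR adjusted p = 0.516). Of 15 cohesin genes, 4 rose, led by Cdca5 (0.85 ± 0.15), which protects cohesion, with a median of 0.28. Of 20 genes of the anaphase-promoting complex and its partners, 5 rose, among them Anapc5 (0.43 ± 0.08) and the inhibitor gene Fbxo5 (0.77 ± 0.15), with a median of 0.12. Of the 3 genes particular to condensin II, 1 rose, Ncapg2 (1.07 ± 0.19). Of 12 genes for DREAM, MYB and FOXM1 regulators, 2 rose: Tfdp1 (0.78 ± 0.16), a partner of E2F factors, and Mybl2 (1.05 ± 0.23), the MYB of the MuvB complex. Foxm1 itself had 0.71 ± 0.36 (edgeR adjusted p = 0.261).

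In MPP3, mutant against control, the same question was put to the progenitors. The members leaned upward, 49 of 51 with a positive log2 fold change, but 0 were called higher, where 0.0141% of all genes were, and 0 lower, where 0.0494% were. The median of the members was 0.28 (range -0.10 to 0.75), and that of all genes was -0.02. At an unadjusted edgeR p under 0.05, 18 members were higher, against 6.31% of all genes, and 0 were lower. DESeq2 called 3 members higher, of 158 genes called higher in all. The groups did not overlap for 8 members, mutant above control, against 3.65% of all genes. These 8 were Ccnb1, Cdca8, Bub1, Mad2l1, Kif2c, Kif22, Tpx2 and Ect2.

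The smallest adjusted p in MPP3 belonged to Ncapd2, which stood at 235, 244, 307 and 262 CPM in control and 363, 392, 372 and 301 CPM in mutant MPP3 (0.45 ± 0.10, edgeR adjusted p = 0.111). Control replicate 3 lay above mutant replicate 4, so the groups overlapped. Mad2l1 stood at 79.8, 98.6, 84.4 and 90.4 CPM in control and 127, 109, 108 and 132 CPM in mutant MPP3 (0.43 ± 0.10, edgeR adjusted p = 0.113), with every mutant library above every control library. Kif20a stood at 103, 133, 138 and 103 and 171, 188, 138 and 176 CPM (0.49 ± 0.14, edgeR adjusted p = 0.151). Cdk1 stood at 103, 124, 97.6 and 83.1 and 152, 132, 111 and 147 CPM (0.41 ± 0.12, edgeR adjusted p = 0.152). For Kif20a and Cdk1, mutant replicate 3 was the lowest mutant library and fell within the control range. The largest p belonged to Anln, with 30.1, 33.8, 40.5 and 36.8 CPM in control and 27.7, 39.9, 42.5 and 26.7 CPM in mutant MPP3 (-0.04 ± 0.19, edgeR adjusted p = 0.965), and to Kif18b, with 11.1, 18.6, 25.8 and 18.3 and 22.2, 23.5, 16.6 and 14.6 CPM (0.06 ± 0.26, edgeR adjusted p = 0.965). Both overlapped widely, and the sign of either depended on single libraries.

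Mutant MPP3 replicate 3 was the lowest mutant MPP3 library for 29 members, and the medians within batches 1 to 4 were 0.52, 0.19, 0.04 and 0.47 on the log2 scale. Only 27 of 51 members were higher in the mutant library of batch 3, against 48.3% of all genes, and 48 were in batch 1. Without mutant MPP3 replicate 3, 1 member, Mad2l1, was called (0.046, edgeR). With the replicate number as a block, 1 member other than Mad2l1 was called, where 25 of all genes were called higher. Summed levels of markers of other cell types stand beside these values. The 8 erythroid markers summed to 439, 822, 546 and 739 CPM in control and 108, 187, 300.5 and 217 CPM in mutant MPP3, with none at 0 in either group and 0 called. The 6 B cell markers summed to 113, 187, 136 and 214 CPM in control and 70.8, 75.3, 116 and 88.1 CPM in mutant MPP3, with 0 called. The 6 neutrophil markers summed to 121, 295, 4.91 and 119 CPM in control and 4.02, 13.7, 209 and 4.04 CPM in mutant MPP3, with 0 called. Mutant MPP3 replicate 3 was thus the highest mutant MPP3 library for each of these 3 lists, and control MPP3 replicate 3, of the same batch, was the lowest control MPP3 library for neutrophil markers. The 6 megakaryocyte markers summed to 531 to 764 CPM in control and 384 to 571 CPM in mutant MPP3, with 1 fallen. Markers of HSC (276 to 366 and 220 to 297 CPM), of MPP3 and early myeloid cells (2800.0 to 5870.0 and 2756 to 4260.0 CPM), of T and NK cells (329 to 491 and 484 to 555 CPM), of mast cells and basophils (55.3 to 114 and 67.4 to 134 CPM) and of stroma and endothelium (86.9 to 183 and 132 to 152 CPM) had 0 called. Their part in the values of the mitosis genes was not tested.

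**Figure D5:**
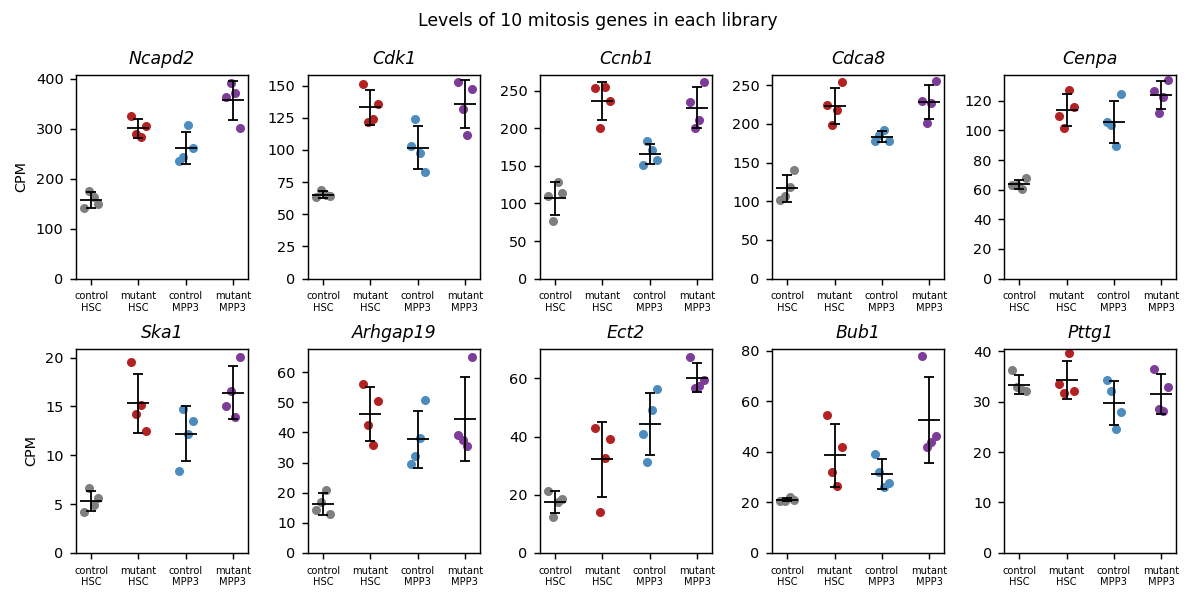
CPM (y axis from 0) of 10 mitosis genes in the 4 groups; points are libraries, lines and bars the mean ± SD (n = 4). The control HSC mean is lowest in each panel except that of Pttg1, whose 4 groups share a range, and single libraries stand apart for Bub1 (78.0 CPM) and Arhgap19 (65.1 CPM) in mutant MPP3.

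Control MPP3 set against control HSC gives the difference between the cell types without the mutation. Mitosis genes were higher in the progenitors: 28 of 51 members were called higher, where 6.67% of all genes were, and 0 lower, where 6.91% were. The members had a median log2 fold change of 0.58, against -0.005 for all genes, and 50 of 51 were positive. For 26 members the groups did not overlap, MPP3 above HSC, against 9.25% of all genes. Those called included 5 of 6 genes of chromosome structure, 5 of 7 of kinesins and spindle assembly, 4 of 7 each of entry into mitosis and cytokinesis, 4 of 10 of the kinetochore, 3 of 6 of the kinases and passenger complex and 3 of 8 of the checkpoint and anaphase.

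Cenpa had the smallest adjusted p, with 62.9, 63.2, 60.2 and 67.7 CPM in control HSC and 106, 103, 89.6 and 125 CPM in control MPP3 (0.74 ± 0.10, edgeR adjusted p = 0.000149). Ncapd2 stood at 235, 244, 307 and 262 CPM in control MPP3, against the control HSC values given above (0.73 ± 0.11, edgeR adjusted p = 0.00016). Top2a stood at 497, 534, 545 and 375 CPM in control MPP3 (0.77 ± 0.12, edgeR adjusted p = 0.000311). In these 3 genes each MPP3 library was above each HSC library. Ncaph, the clasp subunit of condensin I, stood at 36.8, 28.1, 40.1 and 43.0 CPM in control HSC and 65.3, 65.9, 107 and 78.8 CPM in control MPP3 (1.10 ± 0.18, edgeR adjusted p = 0.000575). The largest change was that of Ect2, from 21.2, 12.5, 17.6 and 18.6 CPM in control HSC to 41.0, 31.4, 49.0 and 56.2 CPM in control MPP3 (1.35 ± 0.27, edgeR adjusted p = 0.0028). Neither Ncaph nor Ect2 had overlapping groups. The largest p belonged to Cdc25b, at 49.9, 58.7, 64.2 and 44.5 CPM in control MPP3 (0.15 ± 0.13, edgeR adjusted p = 0.529), and to Kif18b (0.16 ± 0.26, edgeR adjusted p = 0.762).

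This count was 16 without control MPP3 replicate 2 and 18 without control MPP3 replicate 3, and 15 members held their call in all 25 settings. Those 15 were Cdk1, Ccnb1, Ccnf, Cdca8, Mad2l1, Cenpa, Ska1, Kif2c, Kif22, Ect2, Arhgap19, Top2a, Smc4, Ncapd2 and Ncaph. Markers of other cell types also differ between these populations: mast cell and basophil markers summed to 2.94 to 8.93 CPM in control HSC and 55.3 to 114 CPM in control MPP3, with 3 of 4 called higher, and megakaryocyte markers to 2328 to 2595 and 531 to 764 CPM, with 6 of 6 called lower. B cell markers summed to 72.2 to 93.9 CPM in control HSC and 113 to 214 CPM in control MPP3, with 4 of 5 tested called higher. Erythroid markers summed to 160 to 341 and 439 to 822 CPM, with 1 of 8 called higher. Of the markers of T and NK cells (48.6 to 84.1 and 329 to 491 CPM) and of stroma and endothelium (61.5 to 85.7 and 86.9 to 183 CPM), 1 each was called higher, and of those of neutrophils (21.7 to 69.6 and 4.91 to 295 CPM) 0 were called. Their part in the mitosis gene difference was not tested.

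In the mutant mice the 2 cell types were close in the mitosis genes. Of 51 members, 1 was called higher in mutant MPP3 than in mutant HSC, where 3.69% of all genes were, and 0 lower, where 4.68% were. The median of the members was -0.01, with 25 of 51 positive, and 1 member had every mutant MPP3 library above every mutant HSC library, against 6.14% of all genes in that direction. That member was Ect2, with 43.1, 14.0, 32.6 and 39.2 CPM in mutant HSC and 67.5, 56.6, 57.4 and 59.6 CPM in mutant MPP3 (0.90 ± 0.27, edgeR adjusted p = 0.0452). Its call lies at the threshold: it was lost in 12 of the 16 fits that left out 1 library, those without control HSC replicate 1, 3 or 4, mutant HSC replicate 2, 3 or 4, control MPP3 replicate 1 or 3, or any mutant MPP3 replicate (edgeR adjusted p = 0.0564 to 0.114). Mad2l1 stood at 109, 97.6, 94.7 and 99.7 CPM in mutant HSC and 127, 109, 108 and 132 CPM in mutant MPP3 (0.25 ± 0.10, edgeR adjusted p = 0.171). Ncapd2 had a change of 0.25 ± 0.10 (edgeR adjusted p = 0.184) and overlapped, with mutant MPP3 replicate 4 below mutant HSC replicates 1 and 4. Bub1, a checkpoint kinase, stood at 54.6, 31.9, 26.3 and 41.8 CPM in mutant HSC and 78.0, 41.8, 44.1 and 46.3 CPM in mutant MPP3 (0.44 ± 0.23, edgeR adjusted p = 0.291), and mutant MPP3 replicate 1 stood apart from the others. The largest p belonged to Nuf2, at 71.6, 50.0, 39.8 and 60.2 and 80.1, 52.0, 34.3 and 52.2 CPM (-0.02 ± 0.23, edgeR adjusted p = 0.981), and Cdc20, at 120.3, 108, 160.0 and 141 and 127, 114, 155 and 138 CPM (0.01 ± 0.17, edgeR adjusted p = 0.986). A p that misses the threshold does not show that the levels are equal. The median SE of the members' log2 fold changes was 0.17. Markers of other cell types differed here: 6 of 6 megakaryocyte and 2 of 8 erythroid markers were called lower. Called higher were 4 of 5 B cell markers tested and 2 of 4 mast cell and basophil markers. Of T and NK cell markers and of stroma and endothelium markers, 1 each was called higher, and of neutrophil markers 0 were called. Their part in the mitosis gene values was not tested.

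The difference of the mutant effect between the cell types, MPP3 minus HSC, was tested as an interaction in the same edgeR model. It was negative for 50 of 51 members, with a median of -0.60, against -0.001 for all genes. None passed the adjusted threshold: 0 members were called lower, where 0.0282% of all genes were, and 0 higher, where 0.0141% were. At an unadjusted edgeR p under 0.05, 36 members were lower, against 3.73% of all genes, and 0 were higher. DESeq2 called 5 members lower, of 52 genes called lower in all: Cenpa, Cdca8, Arhgap19, Kif22 and Top2a. In edgeR the smallest adjusted p, 0.353, was shared by Cenpa (-0.61 ± 0.15), Cdca8 (-0.62 ± 0.15), Arhgap19 (-1.27 ± 0.32) and Kif22 (-0.60 ± 0.15). For Cdca8 the control MPP3 libraries stood at 178, 185, 193 and 178 CPM and the mutant ones at 230.2, 202, 227 and 256 CPM. For Kif22 they stood at 134, 134, 145 and 127 CPM and 152, 169.5, 166 and 179 CPM. These shifts in MPP3, 0.32 and 0.30 on the log2 scale, stand beside 0.94 and 0.90 in HSC. For Arhgap19, with 29.5, 32.0, 38.3 and 50.8 CPM in control and 39.1, 37.6, 35.5 and 65.1 CPM in mutant MPP3, the changes were 0.24 in MPP3 and 1.51 in HSC. The largest p belonged to Bub1, at 39.1, 32.2, 26.1 and 27.9 CPM in control MPP3 (-0.13 ± 0.32), and to Pttg1, at 34.3, 32.1, 24.5 and 28.0 CPM in control and 36.5, 28.6, 28.2 and 33.0 CPM in mutant MPP3 (0.05 ± 0.19), both with an edgeR adjusted p of 1. Bub1 was the member with the largest mutant change in MPP3 (0.75 ± 0.23), beside 0.88 ± 0.23 in HSC.

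Members called in HSC can be set beside those not called by their promoters. Of the 34 called members with a promoter entry, TTTGAA occurred in 27 (79.4%) and CCAAT in 27 (79.4%). Of the 8 not called, all with an entry, TTTGAA occurred in 5 (62.5%) and CCAAT in 6 (75.0%). Among the called members with an entry, Ccnb1, Birc5, Bub1, Mad2l1, Cenpe, Nuf2 and Ncaph hold no TTTGAA. Among those not called, Ttk, Kif18b, Ect2, Kif23 and Ska3 hold TTTGAA, and Cdc25b, Ska2 and Pttg1 do not. With 8 genes on that side, these shares are a description only, and their difference was not tested.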

How the data were processed

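Per the labels' protocols, total RNA of 10 ng with an integrity number over 8.0 was made into cDNA with a SMARTer Ultra Low kit, amplified for 12 to 15 cycles without molecular identifiers named, and read as 150-base pairs. The submitters' processing notes name cutadapt 4.0, FastQC, HISAT2 and Salmon with GRCm38 (mm10); no source used here gives their settings or the transcript set. The deposited tables hold Salmon's estimated counts per gene, which were tested, and the authors' TPM, used only for levels between genes; effective gene lengths, deposited beside them, served 1 alternative. Of 31716 rows, 1910 named as transcripts (0.697 to 0.796% of counts) were left out.

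Counts were rounded and fitted with edgeR 4.0.16 (R 4.3.3; filterByExpr, TMM, robust glmQLFit, glmQLFTest) in 1 model of 4 groups over 16 libraries, with 5 contrasts and Benjamini-Hochberg adjustment; SE is the log2 fold change over the square root of F. Within-batch differences used log2 CPM with a prior count of 2. The code was tested on simulated data. Symbols, coordinates and overlaps came from GENCODE M21, and promoters from RefSeq. Figures used matplotlib 3.10.9. Alternatives were RLE factors, effective-length offsets, DESeq2 1.42.0, limma-voom (limma 3.58.1), no filter, a replicate block, leaving out genes of haemoglobin, ribosomal RNA and mitochondria, the compared groups alone, each library left out, and mutant HSC replicates 1 and 4 left out.

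The labels make the replicate number a batch, which pairs the libraries. The main fit did not use this pairing, so its SE and adjusted p do not take it into account. The replicate block, an alternative, did use it. Deviations from group means correlated at -0.032 to 0.164 (median 0.06) over 24 pairs with the same number and at -0.104 to 0.07 (median -0.021) over 72 others. Members, gene lists and tests were chosen with earlier results of these data known. By rule, values in every library were given for the 2 members of each role with the smallest p and those not called in HSC, and in other comparisons for the 4 with the smallest and 2 with the largest p. Ect2 in control MPP3 was named after its value was seen. Further genes were at most 3 a list, by smallest p or not called.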

Additional observations from a re-analysis of the deposited data

Results flagged for a closer look

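A single library stood apart within its group of 4 in 3 of 112 cases, which were 27 named genes and the sum of all 51 members in each of 4 groups, by Dixon's test of the gap to the nearest value; chance gives about 1 in 20. All 3 were mutant MPP3 libraries. Bub1, the checkpoint kinase gene, stood at 78.0 CPM in replicate 1, with 41.8, 44.1 and 46.3 CPM in replicates 2 to 4. Arhgap19, the cytokinesis regulator gene, stood at 65.1 CPM in replicate 4, with 39.1, 37.6 and 35.5 CPM in the others. Cdc25b, the CDK1 phosphatase gene, stood at 65.6 CPM in replicate 2, with 59.7, 59.7 and 60.6 CPM in the others, a gap small beside its level.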

How the results depend on the processing

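The count of members called higher in mutant HSC was 42 to 47 under the 8 settings that kept every library (44 with the replicate block), 35 to 45 with 1 library left out and 20 without mutant HSC replicates 1 and 4. In MPP3 the count of 0 called higher became 3 with DESeq2, 1 with the replicate block and 0 to 1 with 1 library left out. Control MPP3 against control HSC gave 28, with 16 to 31 when 1 library was left out. Mutant MPP3 against mutant HSC gave 1, with 2 by effective-length offsets, 0 with no filter, 0 with the 2 groups alone and 0 to 1 with 1 library left out. The difference of effects gave 0 called lower, and 5 with DESeq2. With the block the count between control cell types was 32. Among the genes named, the block changed the call of Ect2 in mutant HSC alone (log2 fold change 0.83).

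Signs turned for these named genes, none of which passed the test. With 1 library left out, log2 fold changes ran from -0.007 to 0.111 for Pttg1 in HSC, -0.104 to 0.267 for Kif18b and -0.15 to 0.048 for Anln in MPP3, -0.048 to 0.335 for Kif18b between control cell types, -0.094 to 0.1 for Cdc20 and -0.273 to 0.129 for Nuf2 between mutant cell types, and -0.064 to 0.111 for Pttg1 and -0.424 to 0.081 for Bub1 in the difference. Cdc20 also turned with the 2 groups alone (-0.008). Without mutant HSC replicates 1 and 4, Cdc20 (-0.006), Nuf2 (0.284), Pttg1 (-0.01) and Bub1 (0.278) turned, the last 2 in the difference. The cause was not tested. The median of the members stayed between 0.719 and 0.946 in HSC over all 25 settings.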
